A study of Mus musculus with 8 samples.

Results

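The Sox and forkhead genes encode DNA-binding transcription factors, and 62 of them (18 Sox and 44 forkhead genes) were read by 80 probes on a mouse gene expression array that holds 27656 probes with a RefSeq symbol, for 20972 symbols. Every probe whose accession led to a symbol made of Sox and a number, or of Fox, a letter from a to s and a number, was taken, with Sox2 left out. The members were sorted by textbook role into 44 lineage factors, 15 broadly expressed factors and 3 factors known from pluripotent cells.

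The cells were mouse embryonic stem cells, which are pluripotent, and all cultures were grown with LIF, which keeps them self-renewing, and with the FGF receptor inhibitor PD173074 at 250 nM. In the untreated group (3 arrays) RNA was taken with no further agent, as the treatment label states, although the sample titles carry an abbreviation of actinomycin D. In the vehicle group (2 arrays) the cells received 5 µM actinomycin D, which blocks transcription, and 30 min later ethanol for 4 h. In the 4OHT group (3 arrays) they received the same actinomycin D and 30 min later 250 nM 4-hydroxytamoxifen (4OHT) for 4 h. The design text names 3 biological replicates for each condition, and 2 vehicle arrays were used here. The labels give no genotype and no target of 4OHT, while the series' title speaks of Erk, a kinase that FGF receptors activate, and of mRNA decay. With transcription blocked, vehicle against untreated asks which mRNAs are lost over the chase, and 4OHT against vehicle asks whether that loss changes when 4OHT is added.

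Sox proteins bind DNA through an HMG box and bend it, and they act mostly beside partner factors such as POU proteins. Forkhead proteins bind through a winged helix. FOXO factors are held out of the nucleus when phosphorylated by Akt or Sgk kinases and bound by 14-3-3 proteins, FOXM1 drives genes of mitosis, and FOXH1 carries activated Smads to Nodal target genes. In the early embryo Foxa and SoxF genes mark endoderm, SoxB1 genes mark pluripotent and neural cells, and Foxd3 is needed to maintain the epiblast.

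A level here is the log2 processed signal minus the array's own 75th percentile, so it is relative to the other transcripts on that array. The 75th percentile lay between 333 and 457 signal units on the untreated arrays, and between 166 and 209 on the arrays after actinomycin D, so equal levels stand for a dimmer signal after the block. Differences were tested with limma over 28491 features, and "called" means a Benjamini-Hochberg adjusted p under 0.05. The untreated and vehicle arrays were in separate rows of 1 slide, and the 4OHT arrays lay on another slide, so row and slide cannot be told apart from the groups. Since RNA came from bulk cultures, fewer cells with a transcript and less of it per cell cannot be told apart. All 10 naive stem cell markers, among them Pou5f1, Nanog and Esrrb, were well above background on all 8 arrays. Of 10 feeder fibroblast markers 4 were, and Twist2, Postn and Lum were above it on no array, while the log2 of the list's summed signal was 5.97 to 6.12 on untreated, 7.44 to 7.57 on vehicle and 7.59 to 7.73 on 4OHT arrays, with Fn1 the brightest member. All 8 primitive endoderm markers were well above background on the untreated arrays, and their part in the levels below was not tested.

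The lineage factors were detected less fully than the broad ones, and fewer of them were detected after the block; these are counts with no test. All 15 broad factors were well above background on every untreated array, as were all 3 pluripotent-cell factors, against 30 of the 44 lineage factors (68.2%). Over all symbols on the array that share was 70.2%. On every vehicle array 14 broad and 20 lineage factors were detected, and on every 4OHT array 13 broad and 19 lineage factors. Of the 5 endoderm factors all 5 were detected on every untreated array, 1 on every vehicle array and 0 on every 4OHT array. The 1 with vehicle, Foxa3, was well above background on 2 of the 3 4OHT arrays. Detection on every array is easier to meet with 2 vehicle arrays than with 3 4OHT arrays. Of the 9 mesoderm and vascular factors 4 were detected in untreated cells and 1 in each of the other groups. Among the 12 neural factors, in contrast, 9 were detected in untreated cells and 8 in each of the other groups. A detection count falls with signal as well as with the transcript, since over all symbols it was 70.2% in untreated, 66.7% with vehicle and 64.1% with 4OHT.

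**Figure D1:**
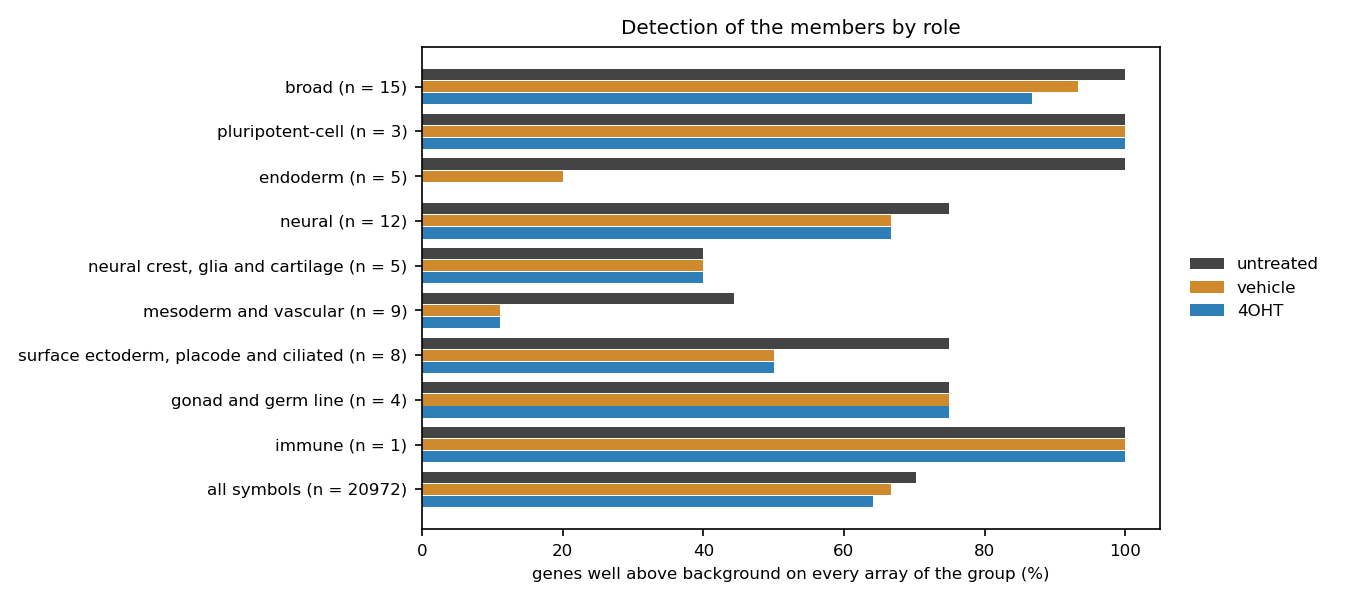
Share of members (%) well above background on every array of a group, by role, for untreated (3 arrays), vehicle (2 arrays) and 4OHT (3 arrays), with the number of genes in each role in parentheses. The endoderm factors went from 100% in untreated cells to 20% with vehicle and 0% with 4OHT, while the pluripotent-cell factors stayed at 100%. The endoderm factor Foxa3 was well above background on 2 of the 3 4OHT arrays.

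In all, 8 members were well above background on no array, namely Foxb1, Foxb2, Foxc1, Foxf2, Foxn1, Sox30, Sox6 and Sox9. Sox9, a regulator of cartilage and testis, therefore has no level here. Another 6 were above background on isolated arrays. Foxc2 and Sox8 passed on vehicle replicate 1 alone, Foxl1 on 1 vehicle and 1 4OHT array, Foxp2 and Foxi2 on 1 untreated array and Foxf1 on 2. The remaining 48 members (14 Sox and 34 forkhead) entered the tests, each by passing the background filter in untreated cells. For a member that then dropped below background this filter favoured a fall, so the counts below are also given for members measured on all 8 arrays. That restriction in turn leaves out such falls, so neither count is free of selection.

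Among the factors of pluripotent cells, Foxd3 had the largest fall among the members measured on all 8 arrays. Its level was 2.98, 3.03 and 2.94 in untreated cells, -1.48 and -2.01 with vehicle, and -1.31, -1.81 and -1.74 with 4OHT. The untreated arrays lay far above all others, and the vehicle and 4OHT arrays overlapped. Foxd3 fell by 4.72 ± 0.20 on the log2 scale with vehicle (SE; limma adjusted p = 1.7e-05), and 4OHT differed from vehicle by 0.12 ± 0.20 (limma adjusted p = 0.81). Foxh1, the Smad partner, went the other way on this scale. Its level was 1.72, 1.74 and 1.71 in untreated cells, 2.24 and 2.29 with vehicle and 2.53, 2.51 and 2.56 with 4OHT. The 3 groups did not overlap, and Foxh1 rose by 0.54 ± 0.08 with vehicle relative to the 75th percentile (limma adjusted p = 0.0014), while scaled to spike-in probes it fell by 0.73. The 0.27 ± 0.08 between 4OHT and vehicle did not pass (limma adjusted p = 0.14), but with normexp background correction the difference was 0.43 and did (limma adjusted p = 0.041). Scaled to spike-in probes, Foxh1 differed between 4OHT and vehicle by only -0.04 (limma adjusted p = 0.9).

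Sox15, a close relative of Sox2 in these cells, was spread widely. Its level was -0.91, -0.51 and -1.18 in untreated cells, -1.17 and -1.64 with vehicle and -1.71, -2.93 and -2.66 with 4OHT. Vehicle and untreated arrays overlapped slightly, and all 4OHT arrays lay below them. Vehicle differed from untreated by -0.53 ± 0.38 (limma adjusted p = 0.27) and 4OHT from vehicle by -1.03 ± 0.38 (limma adjusted p = 0.21). Against untreated, 4OHT was lower by 1.56 ± 0.34, a called difference (limma adjusted p = 0.0064). The highest array of each group for Sox15 was untreated 2, vehicle 1 and 4OHT 1.

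The 5 genes whose profile over the 8 arrays lay nearest to that of Foxd3, by Euclidean distance after centring each gene on its mean, were Trib1 (0.39), Zfp105 (0.48), Myc (0.52), Zfp830 (0.65) and Slc38a2 (0.72), out of 14721 candidates. Trib1 encodes a pseudokinase and Myc a growth-promoting transcription factor. Their mean levels went from 1.06 in untreated cells to -3.69 with vehicle for Trib1, and from 2.10 to -2.61 for Myc. No other member was among the 5.

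Foxo1 and Sox4 were the members that fell after the block and were lower again with 4OHT. Foxo1 is the main FOXO factor downstream of insulin and PI3-kinase signalling, and Sox4 is a SoxC factor of progenitor cells. Both have RefSeq promoters, shown here because these genes moved together. In assembly GRCm38.p6 the 250 bases before the start of Foxo1 lie at chr3:52268087-52268336 on the plus strand, and those of Sox4 at chr13:28953700-28953949 on the minus strand, each written in the direction of transcription. Capitals mark CCAAT on either strand, a motif picked after the sequences were seen.
Foxo1: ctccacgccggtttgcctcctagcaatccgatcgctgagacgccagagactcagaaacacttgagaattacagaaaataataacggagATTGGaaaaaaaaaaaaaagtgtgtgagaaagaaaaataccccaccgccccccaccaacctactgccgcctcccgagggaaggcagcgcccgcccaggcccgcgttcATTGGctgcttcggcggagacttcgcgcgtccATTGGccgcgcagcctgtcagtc
Sox4: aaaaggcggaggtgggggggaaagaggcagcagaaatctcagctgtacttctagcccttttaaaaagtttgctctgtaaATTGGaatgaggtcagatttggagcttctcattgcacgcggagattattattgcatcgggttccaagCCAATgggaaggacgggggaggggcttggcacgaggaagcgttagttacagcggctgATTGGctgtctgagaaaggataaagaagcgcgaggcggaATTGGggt
The Foxo1 stretch held 3 such matches, the nearest starting 23 bases before the gene's start, and the Sox4 stretch held 4. CCAAT was present on either strand in 33.8% of 32851 RefSeq promoter stretches of this length and in 22 of the 50 that belong to members (40 of 62 members matched). Neither stretch held TATAAA, the forkhead motif TGTTTAC or the Sox motif ACAAAG on either strand. These matches are letters in a window and say nothing of binding.

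Foxo1 read 2.46, 2.20 and 2.29 in untreated cells, 0.61 and 0.48 with vehicle and -0.63, -0.35 and -0.39 with 4OHT. The groups formed 3 steps with no overlap. Foxo1 fell by 1.77 ± 0.13 with vehicle (limma adjusted p = 0.00013), and was a further 1.0 ± 0.13 lower with 4OHT than with vehicle (difference -1.0, limma adjusted p = 0.016). A second Foxo1 probe read 2.29, 2.07 and 2.19, then -0.90 and -0.89, then -1.67, -1.84 and -1.67. It showed the same steps, with a larger first one of -3.07 and a second one of -0.84 (limma adjusted p = 0.015 with every probe tested by itself).

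Sox4 read 1.86, 1.52 and 1.61 in untreated cells, 0.51 and 0.28 with vehicle and -0.49, -0.76 and -0.57 with 4OHT, again with no overlap. It fell by 1.27 ± 0.15 with vehicle (limma adjusted p = 0.00049) and differed by -1.0 ± 0.15 between 4OHT and vehicle (limma adjusted p = 0.021). Its second probe differed by -0.60 and then by -0.74, the latter short of the threshold when every probe was tested by itself (limma adjusted p = 0.073). Scaled to spike-in probes, Foxo1 and Sox4 were each 1.31 lower with 4OHT than with vehicle (difference -1.31). On that scale the median over all features was -0.36 in the same comparison.

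Only Foxo1 and Sox4 were called lower in 4OHT against vehicle among the 48 members tested, and 0 were called higher by limma. Over all features 2.58% were called lower and 0.92% higher, so 2 of 48 is near the background share. Both calls were lost when vehicle replicate 1 was left out (Foxo1 -0.94, limma adjusted p = 0.09; Sox4 -0.89, limma adjusted p = 0.11) and when vehicle replicate 2 was (Foxo1 -1.07, limma adjusted p = 0.054; Sox4 -1.12, limma adjusted p = 0.057). Both were also lost with scaling to the array median (limma adjusted p = 0.24 for Foxo1 and 0.25 for Sox4), with no scaling, with no background filter and in a fit of the compared groups alone. Sox4 also lost its call without 4OHT replicate 2 (-0.93, limma adjusted p = 0.072) or 4OHT replicate 3 (-1.02, limma adjusted p = 0.06).

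**Figure D2:**
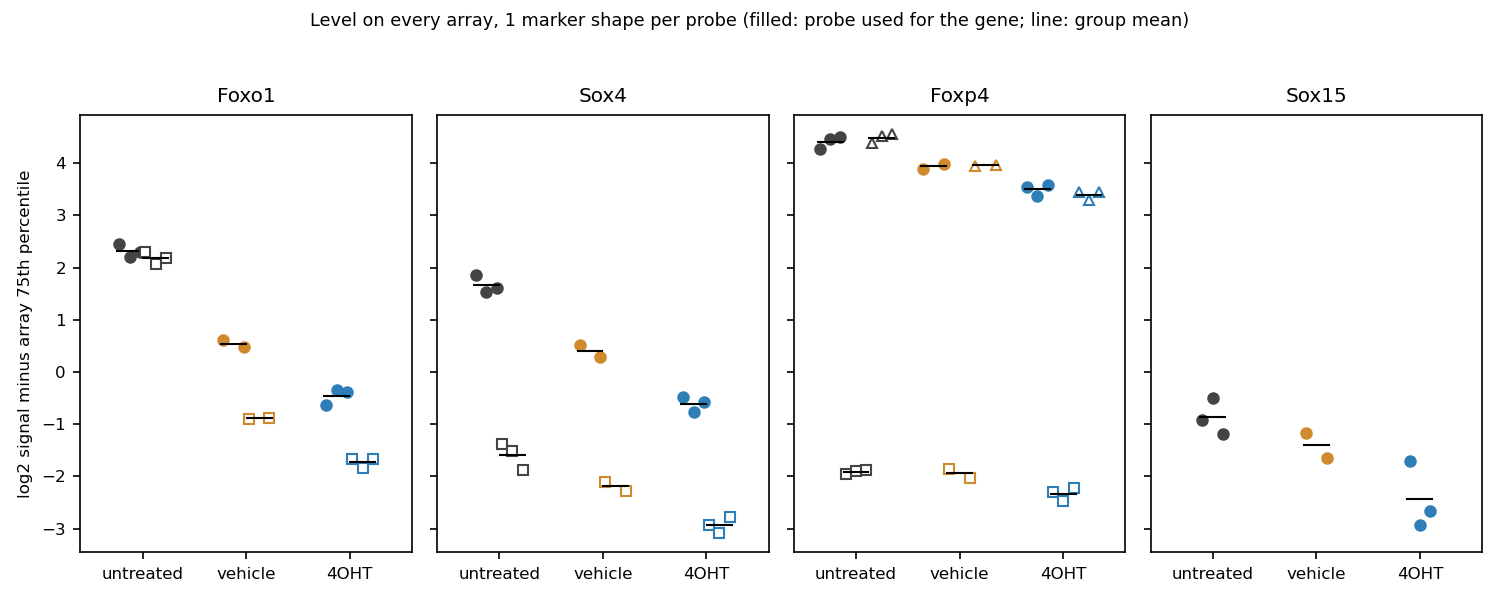
Level (log2 signal minus the array's 75th percentile) of Foxo1, Sox4, Foxp4 and Sox15 on every array of the untreated, vehicle and 4OHT groups, with 1 marker shape per probe and a line at each group mean. Foxo1 and Sox4 step down from untreated to vehicle to 4OHT with no overlap on both probes, while the vehicle and untreated arrays of Sox15 overlap.

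Foxp4, a lung and epithelial regulator that is widely expressed, followed in smaller steps. Its brightest probe read 4.26, 4.47 and 4.49 in untreated cells, 3.89 and 3.99 with vehicle and 3.53, 3.37 and 3.59 with 4OHT. The arrays did not overlap between groups. It fell by 0.47 ± 0.12 with vehicle (limma adjusted p = 0.013, or 0.068 without vehicle replicate 1), and the -0.44 ± 0.12 between 4OHT and vehicle did not pass (limma adjusted p = 0.10). With trended and robust moderation that difference passed (limma adjusted p = 0.043). Another Foxp4 probe gave -0.56 for 4OHT against vehicle (limma adjusted p = 0.034 with every probe tested by itself) and a dimmer one -0.39. For vehicle against untreated these probes gave -0.53 and -0.03, so the dimmer one showed no fall (limma adjusted p = 0.84 with every probe tested by itself).

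Taking all broad factors in vehicle against untreated, 3 rose and 5 fell of 15, with a median difference of -0.17. Over all features 41.5% were called higher and 15.9% lower, and the median was 0.40. Restricted to the 13 broad factors measured on all 8 arrays the counts were again 3 and 5. Those that fell were Foxj3, Foxo1, Sox4, Foxk1 and Foxp4. Foxj3 read 3.53, 4.01 and 3.43 in untreated cells, 1.16 and 0.61 with vehicle and 1.42, 0.90 and 0.92 with 4OHT, a fall by 2.77 ± 0.26 (limma adjusted p = 0.00027). Foxk1, a regulator of muscle progenitors and metabolism, read 0.77, 0.80 and 0.70, then -0.52 and -0.39, then -0.01, -0.32 and -0.28. Untreated arrays stood above the rest, and Foxk1 fell by 1.21 ± 0.12 (limma adjusted p = 0.00033). Its close relative Foxk2 rose by 0.37 ± 0.11 (limma adjusted p = 0.025), a call lost without vehicle replicate 1 and a value of -0.90 when scaled to spike-in probes.

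The FOXO genes differed from each other in their values. Foxo4 read -4.23, -3.96 and -4.10 in untreated cells, -2.75 and -2.82 with vehicle and -2.94, -2.47 and -2.38 with 4OHT. It rose by 1.31 ± 0.18 relative to the 75th percentile (limma adjusted p = 0.001), its second probe by 1.08, and scaled to spike-in probes the difference was 0.03. Foxo3 read -3.15, -3.49 and -3.50, then -3.51 and -3.23, then -3.86, -4.58 and -3.65. The untreated and vehicle arrays were mixed, with a difference of 0.01 ± 0.28 (limma adjusted p = 0.97). Foxo6, which is placed with the neural lineage factors, read 1.73, 2.54 and 2.44 in untreated cells, 0.12 and 0.26 with vehicle and -0.20, -0.20 and -0.11 with 4OHT. Foxo6 fell by 2.05 ± 0.23 with vehicle (limma adjusted p = 0.00045).

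Foxm1, the mitotic activator, read 1.84, 1.74 and 1.73 in untreated cells, 1.97 and 1.85 with vehicle and 1.95, 1.89 and 2.04 with 4OHT. The vehicle arrays lay just above the untreated ones, by 0.14 ± 0.10, which did not pass (limma adjusted p = 0.24). A dimmer Foxm1 probe gave 0.53 for the same comparison (limma adjusted p = 0.0052 with every probe tested by itself). Foxp1 read 3.71, 3.33 and 3.40, then 3.69 and 3.51, then 3.52, 3.19 and 3.33, so all groups overlapped and the vehicle difference was 0.12 ± 0.16 (limma adjusted p = 0.55). Sox13, a SoxD factor, read 0.95, 0.83 and 0.84, then 1.69 and 1.40, then 1.39, 1.34 and 1.31. It rose by 0.67 ± 0.11 relative to the 75th percentile (limma adjusted p = 0.0022) and was -0.60 when scaled to spike-in probes. Sox12, another SoxC gene, read -1.99, -2.56 and -2.76, then -2.51 and -2.61, then -2.48, -2.56 and -2.46, with no separation of the groups and a vehicle difference of -0.13 ± 0.21 (limma adjusted p = 0.64). The other broad factors were Foxn2 at -0.34 and Foxn3 at -0.17, neither called, and Foxj2, which dropped below background and was at least 1.58-fold lower with vehicle, without being called.

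The endoderm factors fell together, and 4 of the 5 dropped below background on both vehicle arrays. Sox7, a SoxF gene of parietal endoderm and endothelium, read -1.97, -1.95 and -1.77 in untreated cells. With vehicle its signal was -5.32 and -6.77 and with 4OHT -5.95, -5.54 and -6.11, all not well above background, so it was at least 7.13-fold lower with vehicle than in untreated cells (limma adjusted p = 0.00028). For this bound, each vehicle array counts at its own lowest detected signal, or at the probe's signal where that is larger. An adjusted p beside a bound, here and below, tests the signals as read and not the bound. Such members were kept through their untreated arrays alone, so the filter favoured a fall and the p lends the bound no support. Foxa2, the pioneer factor of endoderm and floor plate, read -3.38, -4.02 and -3.08 in untreated cells and was not well above background afterwards, with -5.81 and -5.49 with vehicle and -6.84, -6.64 and -6.38 with 4OHT. It was at least 2.35-fold lower with vehicle (limma adjusted p = 0.00079). Foxa1 was at least 2.39-fold lower, and Foxa3, still measured on both vehicle arrays, fell by 1.66 ± 0.51 (limma adjusted p = 0.027, or 0.065 without vehicle replicate 1).

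Sox17, the definitive and primitive endoderm factor, read -4.26, -3.72 and -3.68 in untreated cells, and -5.17 and -5.21 with vehicle and -5.32, -5.22 and -4.75 with 4OHT, none of these well above background. It was at least 1.79-fold lower with vehicle (limma adjusted p = 0.0029), and at least 1.62-fold by its second probe. These levels sit close to the detection limit, and with normexp background correction the vehicle differences of Foxa1, Foxa2 and Sox17 turned to 0.21, 0.29 and 0.52, while Sox7 kept its direction at -0.60 and Foxa3 was at -0.26 and lost its call (limma adjusted p = 0.059). Beside them, the primitive endoderm markers Gata6 and Pdgfra also dropped below background on all vehicle and 4OHT arrays, while Gata4, Lama1, Sparc, Dab2, Cubn and Amn stayed above it. The log2 summed signal of that list was 7.73 to 8.0 in untreated cells and 8.70 to 9.05 with vehicle, and its part in the endoderm factors' levels was not tested.

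Among the neural factors, Sox11, the neural SoxC gene, read -0.54, -0.61 and -0.60, then -1.88 and -2.26, then -1.39, -1.66 and -1.69. It fell by 1.49 ± 0.15 with vehicle (limma adjusted p = 0.00032), and its 4OHT arrays lay above its vehicle arrays by 0.49 ± 0.15, which did not pass (limma adjusted p = 0.14). A second, dimmer Sox11 probe gave 0.23 for vehicle against untreated.

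Sox3, the SoxB1 gene that shares functions with Sox2, read 2.26, 1.45 and 2.29 in untreated cells, 1.74 and 1.66 with vehicle and 1.68, 1.68 and 1.71 with 4OHT. Untreated replicate 2 lay below every other array and the groups overlapped, so the vehicle difference of -0.30 ± 0.25 was not called (limma adjusted p = 0.34). Its relative Sox1 was likewise not called, at -0.42 on one probe and 0.30 on the other. The SoxB2 gene Sox21 rose by 0.39 on the probe used and was -1.94 on its other probe (limma adjusted p = 0.00052 with every probe tested by itself), so its direction depended on the probe. Foxd4 rose by 0.48 ± 0.14, and Sox14 and Foxn4 were not called, at 0.66 and -0.41.

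The mesoderm, vascular and surface ectoderm factors were mostly near background. Sox18, the SoxF gene of blood and lymph vessels, read -4.75, -4.74 and -4.58 in untreated cells and -6.64 and -6.82 with vehicle and -6.92, -6.71 and -6.43 with 4OHT, not well above background. The bound was at least 1.03-fold lower with vehicle (limma adjusted p = 0.00016), so little of a fold is assured at this signal. Foxq1 read -3.89, -4.49 and -3.64 in untreated cells, then -5.59 and -6.58, then -6.68, -6.42 and -6.24 below background, and was at least 1.65-fold lower with vehicle (limma adjusted p = 0.0023). Foxd2 was at least 1.12-fold lower, and Foxd1, measured on 1 vehicle and 1 4OHT array, was not called at -1.89 ± 0.89. With normexp background correction Sox18, Foxq1 and Foxd2 turned to 0.54, 0.49 and 0.59.

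Some lineage factors rose on the relative scale, none of them on the spike-in scale. Foxl2, a regulator of ovary and eyelid, read 6.19, 5.94 and 6.01 in untreated cells, 7.0 and 7.25 with vehicle and 7.09, 7.17 and 6.96 with 4OHT, and rose by 1.08 ± 0.13 (limma adjusted p = 0.00055). Its second probe was dim, at -3.33, -3.23 and -3.31 in untreated cells, and differed by 0.85. Sox5, the SoxD gene of cartilage and glia, read 6.43, 6.28 and 6.31, then 7.25 and 7.17, then 7.26, 7.31 and 7.21. Sox5 rose by 0.87 ± 0.09 (limma adjusted p = 0.00038), while its second probe, below background on all vehicle and 4OHT arrays, was at least 1.41-fold lower with vehicle. Foxl2 and Sox5 thus each had 1 very bright and 1 dim probe, and where these probes lie in the transcripts was not checked, so what the bright ones read is not settled here. With quantile normalization the Sox5 difference was 0.

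Some other lineage risers were dim throughout. Foxp3, the regulator of regulatory T cells, read -2.12, -1.92 and -2.40, then -0.91 and -1.32, then -1.52, -1.64 and -1.03, and rose by 1.03 ± 0.24 (limma adjusted p = 0.0085). Foxi3, a placode gene, read -3.26, -3.35 and -3.31, then -2.38 and -2.65, then -2.92, -2.95 and -2.27, and rose by 0.79 ± 0.22 (limma adjusted p = 0.018). Foxe3, a lens gene, read -4.0, -3.82 and -3.70, then -2.73 and -3.53, then -2.87, -3.18 and -2.70, and rose by 0.71 ± 0.25 (limma adjusted p = 0.047). In each of them both vehicle arrays lay above all untreated arrays, but without vehicle replicate 1 all 3 lost their calls. Members above background on no array shifted on this scale too, from untreated to vehicle means. Sox30 went from -7.5 to -6.4, Foxf2 from -7.5 to -6.6 and Foxn1 from -7.2 to -6.4. Foxc1 went from -7.3 to -6.6, Foxb1 from -6.9 to -6.4 and Sox6 from -7.0 to -6.9. Foxb2 (-6.8 to -7.0) and Sox9 (-6.1 to -6.4) went lower. The part of such a shift in the rises of dim members, Foxo4 among them, was not tested. Foxs1 rose by 0.50, the germ line gene Foxr2 fell by 1.43, and Foxr1, Foxe1, Foxi1, Foxj1 and Sox10 were not called, at values from -0.24 to 0.31.

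**Figure D3:**
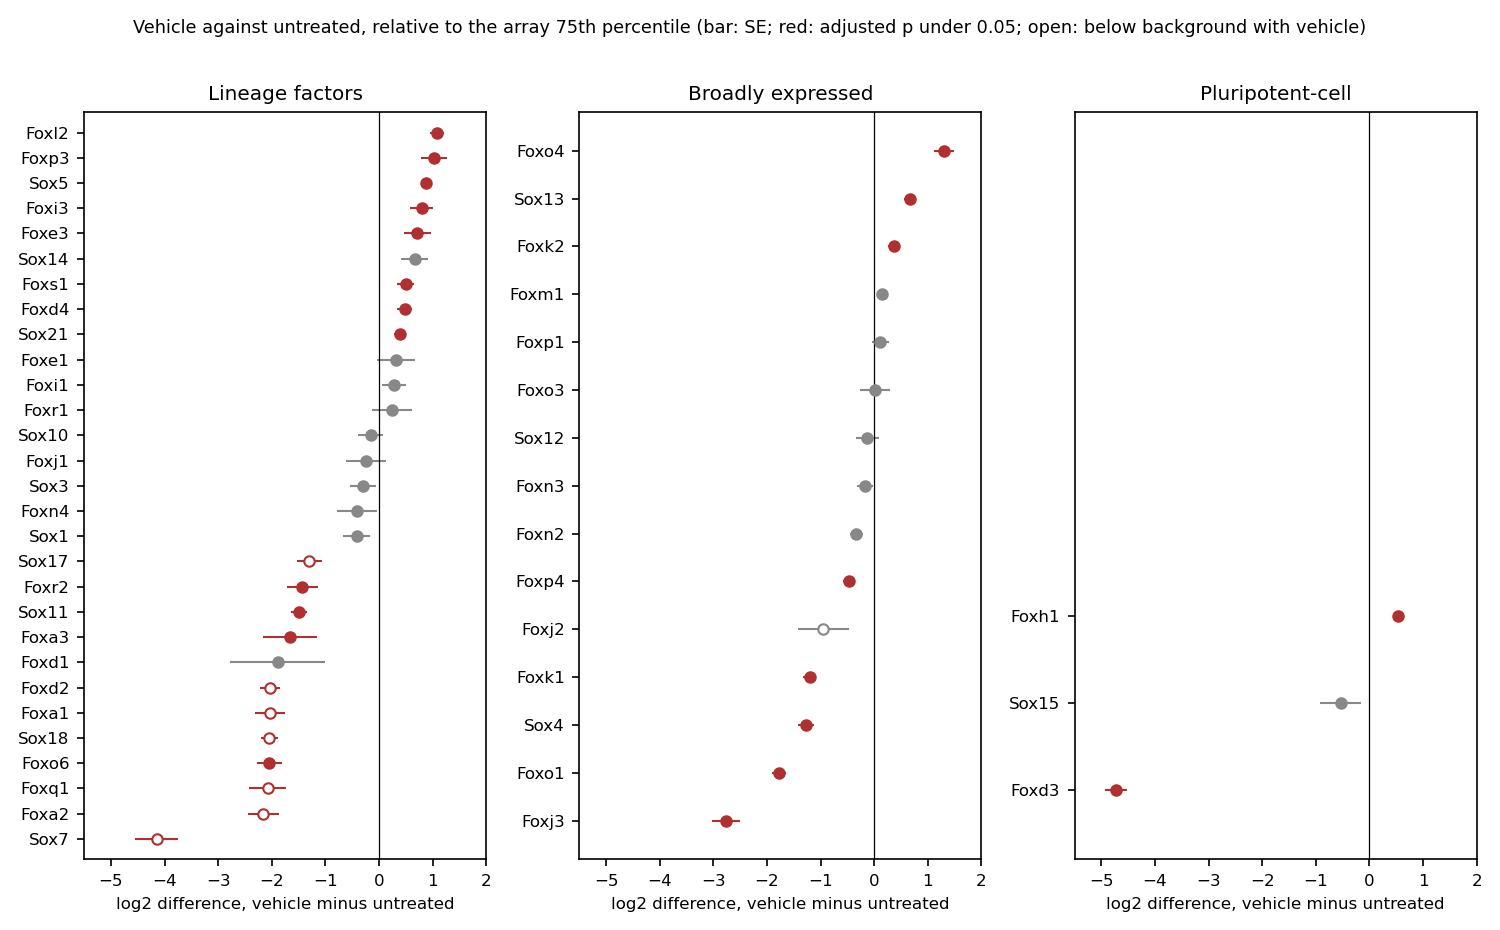
Log2 difference between vehicle and untreated for the tested members that are reported here, by role, with standard errors, relative to the array's 75th percentile. Red points have an adjusted p under 0.05 and open points were below background on both vehicle arrays, which holds for Sox7, Foxa2, Foxa1, Foxq1, Sox18, Foxd2, Sox17 and Foxj2.

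Set side by side, 8 lineage factors rose and 12 fell of the 30 tested in vehicle against untreated, with a median of -0.35, against 3, 5 and -0.17 for the 15 broad factors. Over all features 41.5% were called higher and 15.9% lower, with a median of 0.40. Of the 12 that fell, 7 were below background on both vehicle arrays. Over the 19 lineage factors measured on all 8 arrays 8 rose and 3 fell, with a median of 0.31, against 3, 5 and -0.17 for the 13 such broad factors. This restriction leaves out members not detected on every array after the block, so it removes falls and favours rises. The lineage group's position relative to the broad one thus turned with the members counted, and the difference between the groups was not tested. Over all 48 members 12 rose and 18 fell (6 rose without vehicle replicate 1). Scaled to spike-in probes 0 rose and 41 fell, among them 24 lineage and 14 broad factors, with member medians of -1.63 for lineage and -1.44 for broad factors. On that scale 64.9% of all features were called lower and 0.112% higher, with a median of -0.88. In 4OHT against vehicle the medians were -0.03 for lineage and -0.04 for broad factors, and -0.05 over all features.

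4OHT against untreated shares its arrays with both other comparisons, and gave 13 members higher and 20 lower. Over all features 41% were called higher and 18.7% lower. Foxo1 was 2.77 ± 0.12 lower (difference -2.77) and Sox4 2.27 ± 0.13 lower (difference -2.27), Foxd3 fell by 4.60 ± 0.18, and Sox7 was at least 5.91-fold lower. Foxh1 was higher by 0.81 ± 0.07 relative to the 75th percentile and lower, at -0.77, when scaled to spike-in probes.

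Of 13 members with several probes kept, the probes of Sox11, Sox1, Sox21 and Sox5 differed in sign for vehicle against untreated, and those of the other 9 did not. The second probes of Sox5, Sox17 and Foxo6 were below background on both vehicle arrays, so only the sign of their difference is read. In each differing pair the second probe was tested only as a feature of its own. Sox1 was called on neither probe, at -0.42 ± 0.25 and 0.30 ± 0.26, so its signs are uncertain. The second Sox11 probe was not called either (limma adjusted p = 0.4 with every probe tested by itself). Both Sox21 probes were well above background on all arrays and were called in opposite directions. For Foxo1, Foxo4, Foxo6, Foxp1, Foxp4, Foxl2, Foxm1, Sox4 and Sox17 all probes gave the same sign, though the dimmer Foxp4 probe was at only -0.03.

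**Figure D4:**
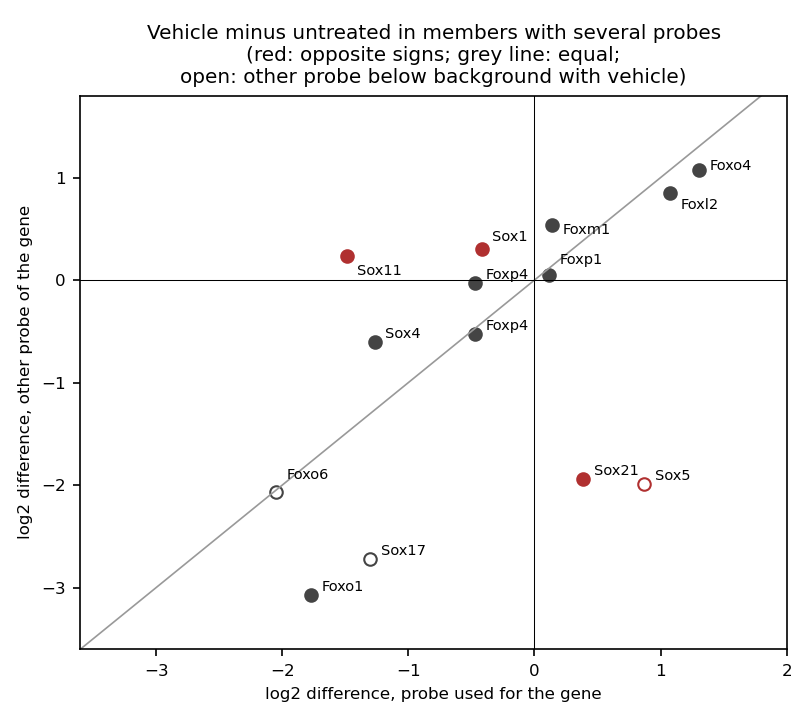
Log2 difference between vehicle and untreated on the probe used for a gene (horizontal axis) and on its other kept probes (vertical axis), for the 13 members with several kept probes, with a grey line of equality. Points in red, for Sox11, Sox1, Sox21 and Sox5, have opposite signs on the 2 probes, and open points, for Sox5, Sox17 and Foxo6, were below background with vehicle on the other probe.

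Genes around the forkhead and Sox factors were followed as lists. Of 20 FOXO regulators 10 rose and 4 fell with vehicle, with a median of 0.48. As shares, 50% rose and 20% fell, near the 41.5% and 15.9% over all features, against which the lists that follow are also to be read. The 14-3-3 genes Ywhaq (1.01), Ywhag (1.0) and Ywhaz (0.99) led the rises, while Sgk1 fell by 3.08, the deacetylase Sirt1 by 1.63 and the PI3-kinase subunit Pik3ca by 0.79. Of 18 FOXO target genes 4 rose and 8 fell, with a median of -0.44. Sod2, an antioxidant enzyme, rose by 1.18, Sesn3 by 1.03 and catalase (Cat) by 0.90, whereas Cited2 fell by 3.88, Bcl6 fell by 3.8 and Ccng2 was at least 4.76-fold lower. Gadd45a, a stress-induced growth arrest gene, was the 1 FOXO target called in 4OHT against vehicle (5.56% higher, against 0.92% over all features). It read 1.98, 2.02 and 1.88 in untreated cells, 0.76 and 0.93 with vehicle and 1.71, 1.62 and 1.66 with 4OHT, so the 4OHT arrays lay above vehicle by 0.82 ± 0.10 (limma adjusted p = 0.013). Scaled to spike-in probes that difference was 0.51 and did not pass (limma adjusted p = 0.19).

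Of 15 FOXM1 target genes 7 rose and 3 fell with vehicle, with a median of 0.49, or 46.7% and 20%, near the shares over all features. Cenpa (0.88), Birc5 (0.85) and Cdc25b (0.80) led the rises, and the mitotic kinases Plk1, Nek2 and Aurka fell by 0.83, 0.44 and 0.38. With 4OHT 2 of the 15 were lower than with vehicle (13.3%, against 2.58% over all features, with no test of the list). Plk1 differed by -1.12 ± 0.15 (limma adjusted p = 0.017) and Ccna2, the cyclin of S phase and mitosis, by -1.06 ± 0.12 (limma adjusted p = 0.01). Foxm1 itself differed by 0.05 and was not called, and a link between it and these genes was not tested.

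Of 14 FOXH1 partners and Nodal target genes 3 rose and 9 fell, with a median of -1.0. Nodal fell by 4.50, its inhibitor Lefty1 by 4.06, while the co-receptor Tdgf1 rose by 0.74, the receptor Acvr2b by 0.67 and the corepressor Drap1 by 0.62. Of 12 POU and beta-catenin partners of Sox factors 5 rose (41.7%, against 41.5% over all features) and 3 fell. Pou5f1 rose by 1.0, Ctnnb1 by 0.73 and Tcf7l1 by 0.69, against falls of Zic2 by 2.56 and Pou3f1 by 1.30. Other HMG-box genes, which share the Sox DNA-binding fold, gave 10 rises and 1 fall of 15, led by Hmgb2 (1.07), Hmgb1 (1.04) and Pbrm1 (0.97), and Hmgxb4 fell by 2.01. All rises in these lists are relative to the 75th percentile, where the median over all features was 0.40. Scaled to spike-in probes, every gene of these lists named as rising with vehicle had a negative difference, the nearest to 0 being Sod2 at -0.10.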

How the data were processed

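Total RNA (100 ng per culture) was labelled and hybridised to 8 single-colour Agilent arrays. Per the file headers, the deposited intensity of a spot is its processed signal, linear and background-subtracted, from Agilent Feature Extraction 11.0.1.1, and the genome build named there is mm9. The labels name Cy5, while the files hold the green channel. The deposited value table was used as an alternative. In the files used here 59305 spots are not controls and 0 were saturated.

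Spots of a probe were averaged, log2 was taken, and each array's 75th percentile was subtracted. A probe had to be well above background throughout 1 group or more (33008 were kept), and accessions were matched to RefSeq symbols of GRCm38.p6, used for names and promoter sequences only. Each symbol took its probe of highest mean, giving 28491 features. Groups were compared with limma 3.58.1 in R 4.3.3 (lmFit, eBayes, 5 residual degrees of freedom), which was tested on simulated data. Errors of differences are standard errors, with 3 untreated, 2 vehicle and 3 4OHT arrays, numbers that limit the precision.

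The members, role lists and pathway lists were chosen with earlier results of these data known, so their counts are descriptions. Values on every array are given for members called in 4OHT against vehicle, for the 8 largest called falls and 8 largest called rises in vehicle against untreated, and for a set of members listed beforehand. Foxp4 was added after its values were seen. Some genes that this rule names are not reported here, and they remain in the counts. Spike-in scaling subtracts the mean of 8 Agilent E1A control probes of 10. Normexp used an offset of 50. Leaving out each array, a replicate block and other filters and fits were also run.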

Additional observations from a re-analysis of the deposited data

How the results depend on the processing

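Calls and directions depended most on scaling, since a level is relative to the array's other transcripts. In vehicle against untreated the members called higher and lower (12 and 18) became 0 and 36 with no scaling and 0 and 41 when scaled to spike-in probes; in 4OHT against untreated (13 and 20) they became 0 and 37, and 0 and 46. Members called higher with vehicle were 5 with the array median and 24 with normexp (24 also in 4OHT against untreated), and called lower were 10 in both comparisons over members well above background on all arrays, where fewer members are tested. With no scaling, vehicle against untreated turned to -0.62 for Foxd4, -0.78 Foxe1, -0.38 Foxe3, -0.56 Foxh1, -0.30 Foxi3, -0.73 Foxk2, -0.02 Foxl2, -0.95 Foxm1, -1.08 Foxo3, -0.98 Foxp1, -0.07 Foxp3, -0.60 Foxs1, -0.42 Sox13, -0.71 Sox21 and -0.22 Sox5. On spike-in probes it turned to -0.80 for Foxd4, -0.96 Foxe1, -0.56 Foxe3, -0.73 Foxh1, -1.0 Foxi1, -0.48 Foxi3, -0.90 Foxk2, -0.20 Foxl2, -1.13 Foxm1, -1.26 Foxo3, -1.16 Foxp1, -0.25 Foxp3, -1.03 Foxr1, -0.78 Foxs1, -0.60 Sox13, -0.89 Sox21 and -0.40 Sox5. Sox14, called neither there nor on the main scale, also turned on spike-in probes, from 0.66 to -0.61. Foxh1 in 4OHT against untreated turned to -0.25 with no scaling and to -0.77 on spike-in probes. Normexp turned dim members to 0.21 (Foxa1), 0.29 (Foxa2), 0.59 (Foxd2), 0.55 (Foxj1), 0.49 (Foxj2), 0.49 (Foxq1), 0.40 (Sox10), 0.39 (Sox12), 0.52 (Sox17) and 0.54 (Sox18). The mean of a gene's probes turned Sox21 to -0.78 and Sox5 to -0.56, and quantile normalization put Sox5 at 0. The cause of these changes was not tested.

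In 4OHT against vehicle the members called lower went from 2 to 0 with the array median, no scaling, no filter on dim probes, only the groups compared, or a replicate block, and normexp called 1 higher, Foxh1. Leaving out 1 array gave 0 to 2 members called lower there, and 6 to 11 called higher in vehicle against untreated. With the replicate block Foxo1 differed by -1.01 (limma adjusted p = 0.097) and Sox4 by -1.0 (limma adjusted p = 0.07). Whether the shared numbers pair the arrays is not settled. Same-number correlations ran from -0.19 to 0.364 over all groups. Between vehicle and 4OHT they were 0.364 and 0.222, against -0.364 to 0.201 for different numbers. The arrays were centred on their group mean, so the 2 vehicle arrays mirror each other. Each 4OHT array therefore has equal and opposite correlations with them, and this contrast cannot settle the pairing. The deposited value table changed no member's call or direction in the 3 comparisons. Counting only the brightest probe for detection, a choice made after seeing the data, left 30 lineage and 15 broad factors. Signal over background limits Sox7, Sox17, Sox18, Foxa1, Foxa2, Foxd2, Foxq1 and Foxj2 to lower bounds with vehicle.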

Other observations

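The arrays of a group differed in a way that recurred across groups. For 7 of the 48 members tested (Foxa1, Foxd1, Foxd3, Foxj1, Foxj3, Foxn4 and Sox15) the highest array was untreated 2 among the untreated arrays, vehicle 1 among the vehicle arrays and 4OHT 1 among the 4OHT arrays, a share of 14.6%. That combination held for 13% of all 28491 features, the largest share of the 18 possible combinations, and this was looked at after the values were seen. Foxn4 read 1.47, 1.70 and 1.07 in untreated cells, 1.49 and 0.51 with vehicle and 1.81, 1.04 and 1.07 with 4OHT. The keratin gene Krt8, one of the trophoblast markers, read 0.58, 2.13 and 0.57, then 3.32 and 1.65, then 3.15, 1.61 and 1.54, and Krt18 had the same arrays highest. So did the trophoblast markers Hand1 and Cdx2, which were above background on only some arrays, making 4 of the 7 on that list. Of the other 3, Elf5 was above background on no array, Ascl2 was highest on untreated 1, vehicle 2 and 4OHT 3, and Tfap2c was lowest on untreated 2, vehicle 1 and 4OHT 1. Whether these arrays share a source was not tested.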
